A study of Homo sapiens with 12 samples.

Results

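The genes described here are those that AP1510, TGF-alpha and Heregulin each moved in the same direction against untreated cells. They were found in MCF10A cells, an established non-tumorigenic human breast epithelial line, that carried a stably transfected chimera of full-length human HER2 with FKBP and HA tags. Of 18417 genes tested, 119 passed in all 3 treatments with 1 sign, which is 0.646%. Of these, 52 rose, 0.282% of the genes tested, and 67 fell, 0.364%. The mean of the 3 treatments against untreated called far more genes, 2528 or 13.7%, with 1143 higher (6.21%) and 1385 lower (7.52%).

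Each of the 4 groups, Untreated, AP1510, TGF-alpha and Heregulin, held 3 arrays, and every group carried the same HER2 chimera. Cells grew in DMEM/F12 with 10 microgram/ml insulin, 500 ng/ml hydrocortisone and 100 ng/ml cholera toxin, supplemented with 20 ng/ml EGF and 5% horse serum. Removal of the serum and the EGF preceded the ligand by 24 hours, and the hormones and the toxin stayed in the medium of all groups. The ligands then acted for 48 hours. The labels do not say when the untreated dishes were harvested, so the effect of a ligand and of longer time without serum cannot be told apart in any change that the 3 treatments share. The 3 comparisons also share the same 3 untreated arrays, so a chance deviation of those arrays enters all of them alike. Dishes were seeded in triplicate, and the p-values rest on the spread among such dishes and arrays. The sources used here give no ligand dose or vehicle and do not say whether the transfected line was 1 clone or a pool.

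HER2 is a receptor tyrosine kinase of the ErbB family that has no known ligand of its own and signals as a dimer. AP1510 is a synthetic molecule with a pair of FKBP-binding ends, and it joins tagged receptors into homodimers. TGF-alpha binds EGFR, and Heregulin binds HER3 and HER4, each of which can pair with HER2. Active ErbB dimers feed the RAS and ERK cascade, which drives proliferation and early transcription factors, and the PI3K and AKT pathway, which keeps FOXO transcription factors out of the nucleus. MCF10A cells depend on EGF for sustained growth and have a basal-like keratin profile.

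The labelled cell type was set against its markers by their log2 levels, which describe these cells but are no test, since probe sets of different genes are not on a common scale. Of 10 basal markers 7 were measured by a probe set with 1 gene, with mean levels from 7.80 for KRT14 to 12.11 for KRT5. Luminal markers ran from 3.53 for PGR and 4.45 for ESR1, the hormone receptors, to 11.50 for KRT18 and 11.68 for KRT8, so that keratins of both kinds were read at high values. Leukocyte markers ran from 2.95 to 7.75, with PTPRC, which defines these cells, at 2.98, endothelial markers from 3.07 to 8.52 and mesenchymal markers from 3.77 to 9.21. None of these leukocyte, endothelial, mesenchymal or luminal markers was among the 119 genes, but only 0.646% of all genes tested were. In the mean of the 3 treatments 3 of 7 luminal, 2 of 9 mesenchymal, 1 of 9 leukocyte and 2 of 7 endothelial markers passed. The share over all genes was 13.7%.

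The AP1510 comparison set the size of the shared list. It called 271 genes (1.47%), against 1566 (8.5%) for Heregulin and 4781 (26%) for TGF-alpha, which share the untreated arrays, and 84 of the 119 shared genes had their largest adjusted p with AP1510. AP1510 replicate 1 stood apart from the other AP1510 arrays. Of the 3 AP1510 arrays it lay farthest from untreated for 41 of the 52 rising and 60 of the 67 falling genes. Without it, the AP1510 comparison called 95 genes and the shared list held 48, of which 25 rose and 23 fell. When replicate 1 was left out, 47 of the 119 genes still passed with AP1510. All 119 kept their sign, which was fixed in advance, since each gene's 9 treated arrays lay on one side of its 3 untreated arrays. The median AP1510 change of the 119 genes went from 1.52-fold to 1.44-fold for the rising genes and from 1.57-fold to 1.41-fold for the falling genes. The shared list also shrank to 51, 69 and 59 genes without Untreated replicate 1, 2 or 3. There were 32 genes, 15 rising and 17 falling, that passed in all 3 treatments whichever of the 12 arrays was left out. The rising ones were AHNAK2, ALOX15B, ANLN, BMAL1, ERG28, FGFBP1, HSD11B2, KRT14, KRT16, MKI67, MUC21, PADI4, SCNN1B, SH3D21 and TFCP2L1. The falling ones were CD14, CES2, CLCA2, EGR3, F2R, FOS, FOSB, HEG1, IL6, LIF, MYLK, NR1D2, PC, PPARGC1A, TIMP3, TNFSF10 and TXNIP.

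**Figure D1:**
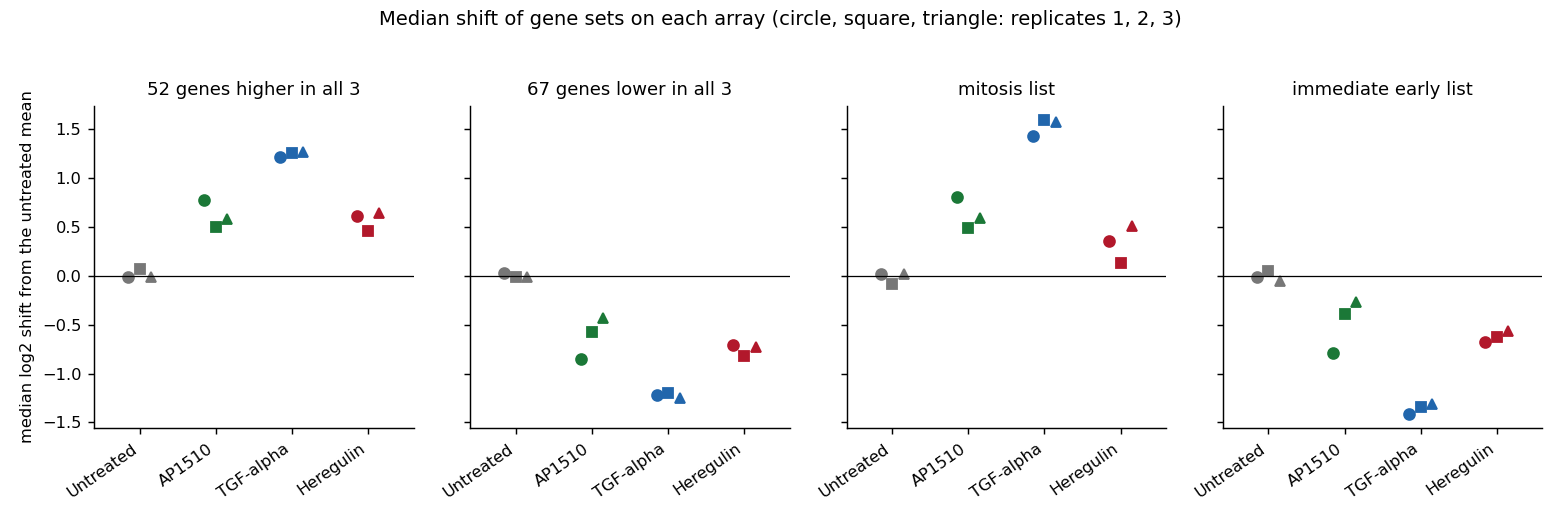
The vertical axis is the median, over the genes of a set, of an array's log2 difference from the untreated mean, for the 52 rising genes, the 67 falling genes, and the mitosis and immediate early lists. TGF-alpha arrays shift farthest in all 4 panels, and AP1510 replicate 1, the green circle, lies farther from 0 than the other AP1510 arrays.

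Among the arrays, the median of the 52 rising genes lay 0.78 above the untreated mean on AP1510 replicate 1 and 0.50 and 0.58 above it on replicates 2 and 3. It lay 1.22 to 1.27 above it on the TGF-alpha arrays and 0.45 to 0.64 on the Heregulin arrays. The median of the 67 falling genes lay 0.85 below on AP1510 replicate 1, 0.57 and 0.43 below on the other AP1510 arrays, 1.19 to 1.25 below with TGF-alpha and 0.70 to 0.82 below with Heregulin. These sets were chosen on the same values, so their shifts describe the choice and are not a test of it. The bulk RNA cannot tell apart fewer cells with a transcript and less of it per cell.

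The strongest rises included a transcription factor, a sodium channel subunit, a steroid-converting enzyme and a mucin. TFCP2L1, a grainyhead-like transcription factor, had log2 values of 7.30, 7.46 and 7.35 in untreated cells, 9.90, 8.36 and 8.55 with AP1510, 9.70, 9.72 and 9.69 with TGF-alpha and 9.58, 9.35 and 9.53 with Heregulin. All 9 treated arrays were above all 3 untreated arrays, as for all 52 rising genes and 1.68% of genes tested, and AP1510 replicate 1 was the highest of the 12. The mean of the 3 treatments was 2.0 ± 0.21 higher on the log2 scale (standard error of the fit, 9 treated and 3 untreated arrays), a 4.0-fold rise, with an adjusted p of 1.1e-05 by limma. The changes were 1.56 with AP1510, 2.33 with TGF-alpha and 2.11 with Heregulin, and without AP1510 replicate 1 the AP1510 change was 1.08 with an adjusted p of 2.8e-04.

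SCNN1B encodes the beta subunit of the epithelial sodium channel, which lets sodium enter across the apical membrane. Its values were 8.45, 8.69 and 8.45 untreated, 9.96, 9.49 and 9.32 with AP1510, 9.99, 10.11 and 9.95 with TGF-alpha and 10.43, 10.20 and 10.24 with Heregulin. No treated array overlapped an untreated one, and the Heregulin arrays were the highest. The mean rise was 1.44 ± 0.11, or 2.71-fold, with an adjusted p of 1e-06 by limma.

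HSD11B2 converts active cortisol into inactive cortisone and so shields mineralocorticoid target cells. It read 7.14, 7.74 and 6.90 untreated, 10.43, 9.58 and 9.59 with AP1510, 8.26, 8.09 and 8.10 with TGF-alpha and 9.29, 9.32 and 9.57 with Heregulin. It was one of 5 shared genes whose largest change came with AP1510, and the groups did not overlap although the untreated arrays spread widely. The rise was 6.07-fold with AP1510, 1.85-fold with TGF-alpha and 4.39-fold with Heregulin. TGF-alpha was lower than AP1510 by a log2 difference of -1.71, with an adjusted p of 1.7e-05 by limma, while the difference of -0.47 between Heregulin and AP1510 had an adjusted p of 0.23.

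MUC21 is a transmembrane mucin of stratified epithelium. Its values were 6.28, 6.75 and 6.56 untreated, 8.37, 7.56 and 7.49 with AP1510, 7.61, 7.55 and 7.43 with TGF-alpha and 9.12, 9.08 and 9.42 with Heregulin. Heregulin raised it farthest, 6.40-fold, against 2.43-fold with AP1510 and 2.0-fold with TGF-alpha. Its other probe sets rose as well, by 1.58 and 1.60 in the mean of the 3 treatments, against 1.65 for the one used. ALOX15B, a lipoxygenase that oxidises arachidonic acid, rose by 0.89, 1.57 and 2.35 on the log2 scale with AP1510, TGF-alpha and Heregulin. LOX, the lysyl oxidase that crosslinks collagen and elastin, rose by 1.12, 1.49 and 2.15 in the same order. Without Untreated replicate 1, LOX no longer passed in all 3 treatments.

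PDE1C, a calmodulin-dependent phosphodiesterase, rose by 0.84 with AP1510, 2.06 with TGF-alpha and 1.07 with Heregulin. ABLIM3, an actin-binding LIM protein, rose by 0.62, 1.97 and 1.41. For both genes the call in all 3 treatments ended without any 1 untreated array, without AP1510 replicate 1 and without any 1 TGF-alpha array. LPIN1, a phosphatidate phosphatase of lipid synthesis, rose by 0.76, 0.97 and 1.02, and the call ended without Untreated replicate 1. PADI4, which converts arginine in proteins to citrulline, rose by 0.82, 0.86 and 0.70. AHNAK2, a very large scaffold protein, rose by 0.82, 0.81 and 0.63.

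**Figure D2:**
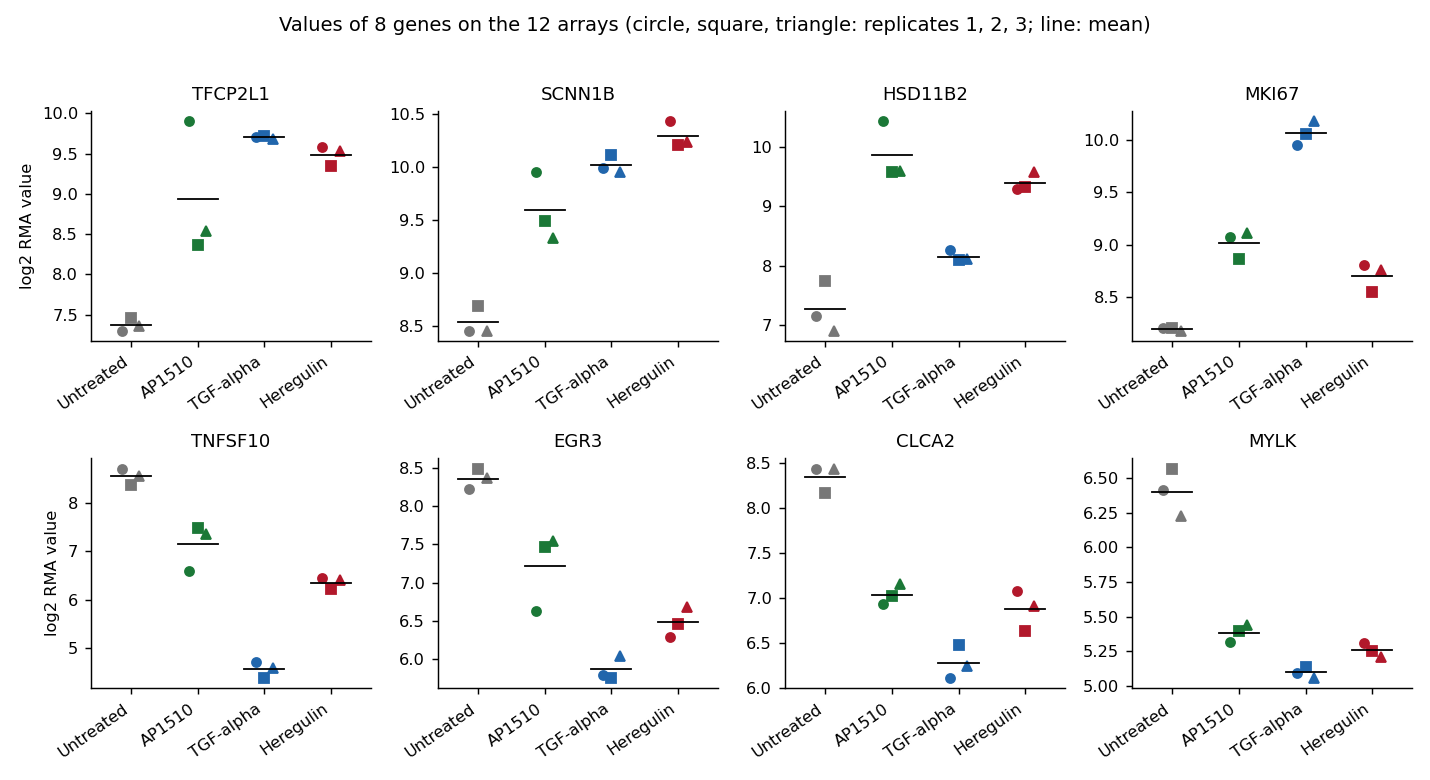
Each panel shows a gene's log2 RMA value on the vertical axis for the 12 arrays in 4 groups, with circles, squares and triangles for replicates 1, 2 and 3 and a line at each group mean. In each of the 8 panels the 9 treated arrays lie on one side of the 3 untreated arrays, which holds for 4.83% of all genes tested.

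TNFSF10 had the largest fall. It encodes TRAIL, a death ligand of the tumour necrosis factor family whose transcription FOXO factors are known to raise. Its values were 8.72, 8.37 and 8.57 untreated, 6.60, 7.50 and 7.36 with AP1510, 4.71, 4.38 and 4.58 with TGF-alpha and 6.45, 6.21 and 6.40 with Heregulin. The 4 groups did not overlap, although AP1510 replicate 1 came near the Heregulin arrays. The mean fall was 5.77-fold, with a log2 change of -2.53 ± 0.14 and an adjusted p of 1.8e-07 by limma, and it amounted to 2.63-fold with AP1510, 15.9-fold with TGF-alpha and 4.58-fold with Heregulin. The TGF-alpha mean was 4.56, and the deposited table holds no detection calls, so whether that level is above background was not tested and the 15.9-fold is the ratio of the RMA values alone. On these values TNFSF10 also had the widest gap between treatments of all shared genes, and the fall with TGF-alpha exceeded that with AP1510 by a log2 difference of -2.60 (adjusted p 4.6e-08 by limma). Without AP1510 replicate 1 its AP1510 change was -1.12, with an adjusted p of 7e-04.

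EGR3 is a zinc-finger transcription factor of the early response to growth factors. It read 8.22, 8.49 and 8.37 untreated, 6.63, 7.47 and 7.54 with AP1510, 5.79, 5.75 and 6.04 with TGF-alpha and 6.30, 6.46 and 6.68 with Heregulin. All treated arrays lay below the untreated ones, as for all 67 falling genes and 3.14% of genes tested, and TGF-alpha arrays were the lowest. The mean fall was 3.58-fold, a log2 change of -1.84 ± 0.15 with an adjusted p of 1.8e-06 by limma.

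CLCA2, a membrane protein of basal and squamous epithelium, fell in all groups with little spread. It had values of 8.43, 8.16 and 8.44 untreated, 6.93, 7.03 and 7.15 with AP1510, 6.11, 6.48 and 6.25 with TGF-alpha and 7.08, 6.64 and 6.91 with Heregulin. The changes were -1.31, -2.06 and -1.47. MYLK, the kinase that phosphorylates myosin light chain and drives contraction, read 6.41, 6.57 and 6.23 untreated, 5.31, 5.39 and 5.44 with AP1510, 5.09, 5.14 and 5.06 with TGF-alpha and 5.31, 5.26 and 5.21 with Heregulin. Its 3 changes were -1.02, -1.31 and -1.15, and the test among treatments gave an adjusted p of 0.078 by limma. All treated MYLK values lay below 5.98, the median untreated level of all genes. Whether they are above background was not tested.

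LIF, a cytokine of the interleukin-6 family, changed by -1.17, -1.02 and -1.32 with AP1510, TGF-alpha and Heregulin. F2R, the thrombin receptor PAR1, changed by -0.86, -1.27 and -1.31, and TIMP3, an inhibitor of metalloproteinases, by -0.85, -1.63 and -1.30. NR1D2 encodes REV-ERB beta, a nuclear receptor that represses clock genes, and changed by -0.96, -1.23 and -1.51. All 4 kept their call in the 3 treatments with each array left out.

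HBEGF, itself a ligand of EGFR and HER4, had changes of -0.88, -1.91 and -1.34, EDN1, the precursor of endothelin 1, of -0.89, -1.85 and -0.87, and PLAU, the urokinase protease, of -0.84, -1.74 and -1.67. Their calls ended without AP1510 replicate 1, the lowest AP1510 array for each, and also without AP1510 replicate 2 or any 1 untreated or TGF-alpha array. HBEGF read 7.99, 7.95 and 7.97 untreated and 6.49, 7.19 and 7.60 with AP1510, and PLAU read 8.09, 7.91 and 7.93 untreated and 6.51, 7.31 and 7.57 with AP1510. Without that array the AP1510 change was -0.57 for HBEGF (adjusted p 0.14 by limma) and -0.53 for PLAU (adjusted p 0.071). CCN1, a matricellular protein, changed by -1.01, -2.50 and -1.17, and its call in all 3 ended only without Untreated replicate 2.

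**Figure D3:**
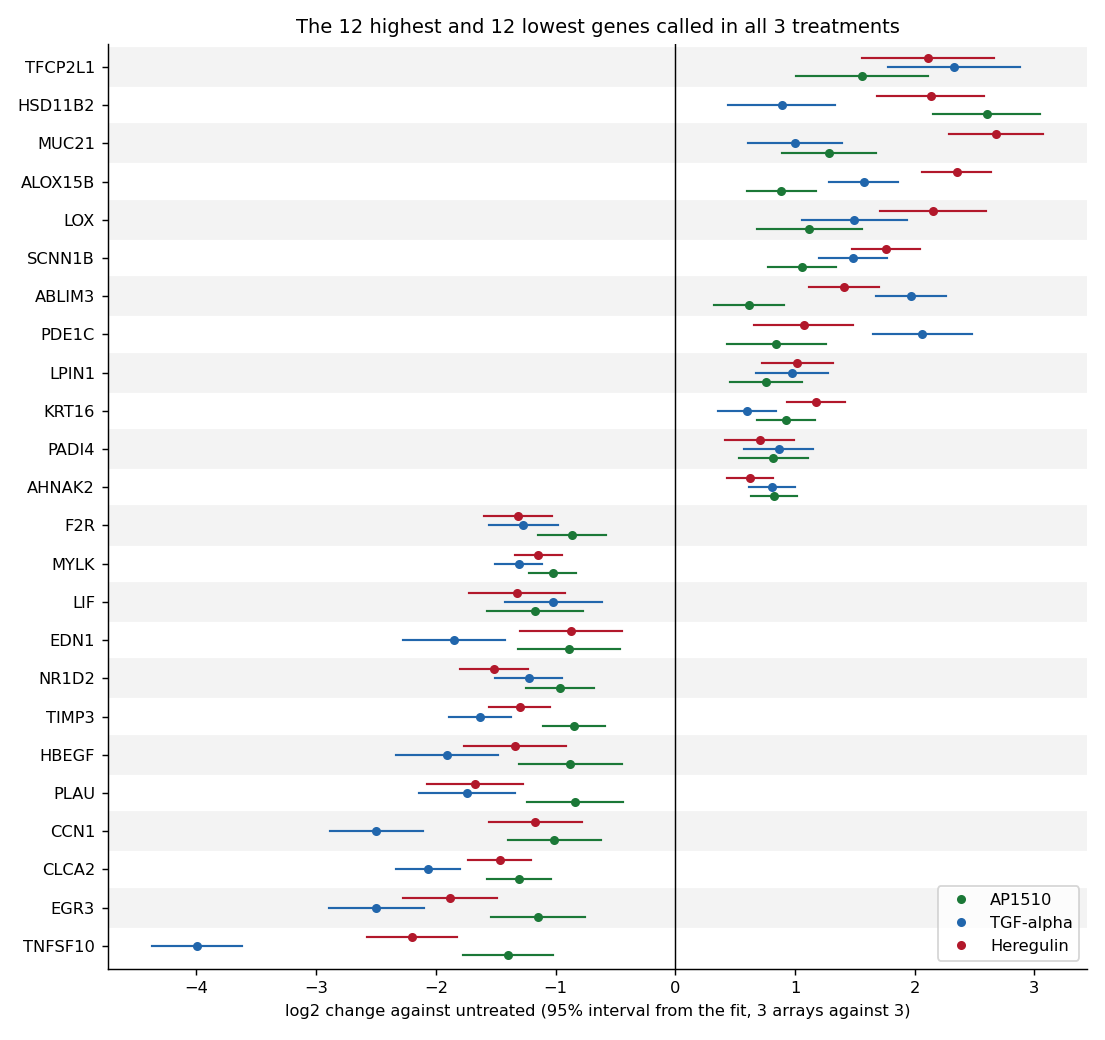
The horizontal axis is the log2 change against untreated with AP1510 (green), TGF-alpha (blue) and Heregulin (red), and lines are 95% intervals from the fit, for the 12 rising and 12 falling genes whose smallest change of the 3 was largest. No interval crosses 0, which follows from choosing genes that passed in all 3 treatments. TNFSF10 spans from -1.40 to -3.99, and LIF and PADI4 have 3 nearly equal changes.

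The shared genes rarely changed by the same amount. TGF-alpha gave the largest change in 86 of the 119 genes, Heregulin in 28 and AP1510 in 5. The median fold of the rising genes was 1.52 with AP1510, 2.34 with TGF-alpha and 1.45 with Heregulin, and that of the falling genes 1.57, 2.29 and 1.73. A moderated F test among the 3 treatments, which uses the untreated arrays only in the estimate of the spread, called 89 of the 119 genes, where 26.6% of all genes were called. The 119 were chosen on the same treated values and spread, so their share describes the choice and is not a test of it. TGF-alpha changed 35 of the rising genes more than AP1510 did and 2 less, and 43 of the falling genes more and 0 less. Heregulin changed 30 of the rising genes less than TGF-alpha and 8 more, and 32 of the falling genes less and 6 more. Against AP1510, Heregulin changed 10 of the rising genes more and 2 less, and 16 of the falling genes more and 1 less. Of all genes, 21.6%, 21.6% and 7.23% were called in these 3 comparisons, in the same order.

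FOSB, GBP2 and HEG1 had the widest gaps after TNFSF10. FOSB, an AP-1 subunit, changed by -0.72 with AP1510, -2.94 with TGF-alpha and -1.0 with Heregulin. GBP2, an interferon-induced GTPase, changed by -0.83, -3.30 and -0.88, and HEG1, a transmembrane protein of cell junctions, by -1.0, -2.69 and -0.83. At the other end stood ADAMTSL4, a matrix protein that binds fibrillin, with changes of 0.47, 0.45 and 0.43. CEMIP, a hyaluronan-degrading protein, changed by -0.50, -0.42 and -0.53, PMAIP1, the BH3-only death protein NOXA, by -0.44, -0.42 and -0.50, and C20orf96 by -0.39, -0.50 and -0.49.

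For the 30 genes that did not pass the F test, the intervals bound how far the treatments may differ. For ADAMTSL4 the 95% interval of TGF-alpha minus AP1510 ran from -0.24 to 0.18 and that of Heregulin minus AP1510 from -0.25 to 0.17. For LIF these intervals ran from -0.25 to 0.56 and from -0.55 to 0.25. For KRT14, a keratin of basal cells, they ran from -0.10 to 0.24 and from -0.02 to 0.32, and for PADI4 from -0.24 to 0.33 and from -0.40 to 0.17.

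Genes of mitosis rose together in the mean of the 3 treatments. All 29 measured genes of the mitosis list passed there, with a median log2 change of 0.82 against -0.0031 over all genes. For this and all later lists, 6.21% of all genes were called higher in the mean and 7.52% lower. In all 3 treatments 11 of 29 passed, against 0.282% of all genes: ANLN, ASPM, BUB1, BUB1B, CENPE, KIF20A, MKI67, NUSAP1, PLK1, PRC1 and TPX2. The list's median change was 1.52 with TGF-alpha, 0.63 with AP1510 and 0.31 with Heregulin, and 29, 22 and 12 of its genes passed, where 12.5%, 0.771% and 3.45% of all genes were called higher. All 29 differed among the treatments.

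MKI67 encodes the Ki-67 protein that coats mitotic chromosomes and marks cycling cells. It read 8.21, 8.21 and 8.18 untreated, 9.07, 8.86 and 9.11 with AP1510, 9.95, 10.06 and 10.18 with TGF-alpha and 8.80, 8.55 and 8.76 with Heregulin. The groups did not overlap with untreated, and the TGF-alpha arrays were the highest. The mean rise was 2.09-fold, a log2 change of 1.06 ± 0.08 with an adjusted p of 8.6e-07 by limma, made of 1.76-fold with AP1510, 3.64-fold with TGF-alpha and 1.42-fold with Heregulin. ANLN, the anillin scaffold of the cleavage furrow, rose by 0.81, 1.74 and 0.59, TPX2, which assembles spindle microtubules, by 0.72, 1.74 and 0.43, and BUB1, a kinase of the spindle checkpoint, by 0.76, 1.83 and 0.47.

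The number of mitosis genes that passed in all 3 depended on single arrays. It fell from 11 to 2 without Heregulin replicate 3 and to 5 without Heregulin replicate 1, and it rose to 15 without Heregulin replicate 2. It was 4, 5 and 7 without Untreated replicate 1, 2 or 3, and 6 without AP1510 replicate 1. The count in the mean of the 3 treatments stayed at 28 or 29 in each of these fits. On the arrays the list's median lay 0.35, 0.13 and 0.51 above untreated for Heregulin replicates 1, 2 and 3.

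Promoters are shown for 4 of the rising mitosis genes, since mitotic promoters are known to carry a cell cycle homology region, or CHR, bound by the DREAM and MuvB complexes, beside CCAAT boxes bound by NF-Y. MKI67 follows the naming rule, and PLK1, PRC1 and ASPM were chosen after their values and matches were seen. With 1 array left out, ASPM kept its call in 2 of the 12 fits, PRC1 in 8, PLK1 in 9 and MKI67 in 12. The stretches are the 120 bases before the gene start from RefSeq, GRCh38.p14, written 5′ to 3′ on the gene's strand, with capitals at matches to the CHR core TTTGAA and to CCAAT on either strand.
MKI67, chr10:128126424-128126543, minus strand: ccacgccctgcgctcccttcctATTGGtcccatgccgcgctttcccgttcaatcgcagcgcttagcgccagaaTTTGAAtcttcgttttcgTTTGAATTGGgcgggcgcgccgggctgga
PLK1, chr16:23678769-23678888, plus strand: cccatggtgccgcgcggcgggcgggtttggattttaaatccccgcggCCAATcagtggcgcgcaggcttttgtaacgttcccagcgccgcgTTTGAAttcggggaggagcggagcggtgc
PRC1, chr15:90994536-90994655, minus strand: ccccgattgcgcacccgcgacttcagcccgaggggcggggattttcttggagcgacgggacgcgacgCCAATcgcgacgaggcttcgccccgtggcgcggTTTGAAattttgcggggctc
ASPM, chr1:197146670-197146789, minus strand: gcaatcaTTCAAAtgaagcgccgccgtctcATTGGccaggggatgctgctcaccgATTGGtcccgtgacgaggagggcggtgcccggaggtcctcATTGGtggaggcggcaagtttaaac
Within 250 bases before to 50 after the start, 7 of the 10 shared mitosis genes with a promoter in the RefSeq table held TTTGAA, and 7 held CCAAT. In the whole mitosis list these were 18 of 25 and 19 of 25. The core TTTGAA was found in 15.4% of all 27305 promoters of the table and in 11.9% of the 14239 tested genes that have one, and CCAAT in 35.7% and 36.3%. Among rising shared genes outside the list, 5 of 29 held TTTGAA and 18 of 29 held CCAAT. In the MKI67 promoter the second TTTGAA overlaps a reversed CCAAT. Each match is a description of letters and not a measured site.

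DNA replication genes show how a call in the mean can lack a shared change. In the mean of the 3 treatments 26 of 33 rose, with a median of 0.51, but 0 passed in all 3 treatments by limma and 1 did at an unadjusted p under 0.05. The list's median was 1.29 with TGF-alpha, 0.35 with AP1510 and -0.0011 with Heregulin. By limma 31 genes rose with TGF-alpha and 2 with AP1510, where 12.5% and 0.771% of all genes were called higher. At an unadjusted p under 0.05, 26 of the 33 rose with AP1510 and 0 fell. With Heregulin 0 rose and 1 fell by limma, where 1 rose and 6 fell at an unadjusted p under 0.05. TYMS, thymidylate synthase, had changes of 0.39, 2.40 and 0.09 with AP1510, TGF-alpha and Heregulin. CDC45, a subunit of the replicative helicase, had 0.48, 2.07 and 0.20. All but 1 of the 33 genes differed among the treatments.

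Ribosome biogenesis genes were similar in that 15 of 18 rose in the mean and 0 passed in all 3 treatments by limma, with 1 at an unadjusted p under 0.05. With AP1510 their median change was 0.03 and 0 passed, with 2 at an unadjusted p under 0.05, against medians of 0.63 with TGF-alpha and 0.35 with Heregulin. NOLC1, a nucleolar chaperone, had changes of 0.33, 1.23 and 0.65. Without Untreated replicate 3 the count in the mean was 9.

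Immediate early genes, which growth factors are known to induce within minutes, were lower 48 hours after ligand. In the mean of the 3 treatments 15 of 20 fell and 0 rose by limma, also 0 at an unadjusted p under 0.05, with a median of -0.85. In all 3 treatments 7 fell, against 0.364% of all genes: CCN1, EGR3, FOS, FOSB, IER2, JUN and JUNB. The list's median change was -0.51 with AP1510, -1.36 with TGF-alpha and -0.62 with Heregulin, with 8, 17 and 12 genes passing, where 0.7%, 13.4% and 5.06% of all genes were called lower. The 7 became 4 without Untreated replicate 1 or 2 or AP1510 replicate 1, and on the arrays the list's median lay 0.79 below untreated on AP1510 replicate 1 and 0.39 and 0.26 below on the other AP1510 arrays.

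FOSB read 10.61, 10.39 and 10.33 untreated, 9.55, 9.67 and 9.94 with AP1510, 7.54, 7.37 and 7.59 with TGF-alpha and 9.33, 9.44 and 9.55 with Heregulin. The treated arrays were below the untreated ones, and the TGF-alpha arrays were far below the rest. The mean fall was 2.94-fold, with a log2 change of -1.56 ± 0.09 and an adjusted p of 1.8e-07 by limma. FOS read 11.18, 11.25 and 11.17 untreated, 10.35, 10.41 and 10.58 with AP1510, 10.21, 10.32 and 10.19 with TGF-alpha and 10.52, 10.71 and 10.89 with Heregulin, a mean fall of 1.67-fold. JUN changed by -0.78, -1.71 and -1.27, JUNB by -0.48, -1.43 and -0.64, and IER2 by -0.54, -1.49 and -0.61. With 1 array left out, JUN kept its call in 9 of the 12 fits, JUNB in 4 and IER2 in 10. FOS, JUN, JUNB and IER2 fall outside the naming rule and are named because they complete the 7. CCN2, a matricellular protein like CCN1, had changes of -0.82, -2.99 and -1.31, and its AP1510 change did not pass (adjusted p 0.12 by limma). KLF10, a zinc-finger factor, did not pass in the mean and had -0.29, -0.04 and -0.25.

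The promoters of FOS and FOSB are shown because both hold TGACGT, the short cAMP response sequence bound by CREB and ATF factors. That of MYLK is shown because it holds a CArG box, the core bound by serum response factor. They were chosen after their matches were seen, and are the 120 bases before the start from RefSeq, GRCh38.p14, 5′ to 3′ on the gene's strand. Capitals mark TGACGT in FOS and FOSB, the E2F core TTTGGCG also in FOSB, and the CArG box in MYLK.
FOS, chr14:75278708-75278827, plus strand: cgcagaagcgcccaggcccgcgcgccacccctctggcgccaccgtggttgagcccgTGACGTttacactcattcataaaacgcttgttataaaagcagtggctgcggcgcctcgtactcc
FOSB, chr19:45467876-45467995, plus strand: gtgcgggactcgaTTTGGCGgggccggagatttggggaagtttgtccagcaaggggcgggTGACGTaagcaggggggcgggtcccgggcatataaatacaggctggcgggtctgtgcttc
MYLK, chr3:123620549-123620668, minus strand: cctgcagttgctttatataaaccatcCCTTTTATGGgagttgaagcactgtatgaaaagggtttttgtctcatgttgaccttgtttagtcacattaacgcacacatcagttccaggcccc
In the immediate early list 5 of 13 promoters held TGACGT on either strand, against 8.32% of all promoters of the table. A CArG box was found in 1 of the 39 promoters of rising and 1 of the 50 of falling shared genes, against 1.29% of the table. The forkhead core GTAAACA, bound by FOXO factors, was in 2 of the 50 promoters of falling genes and in 3.41% of the table, and the E2F cores TTTGGCG or TTTCGCG were in 2 of 39 rising and 3 of 50 falling, against 3.22%.

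**Figure D4:**
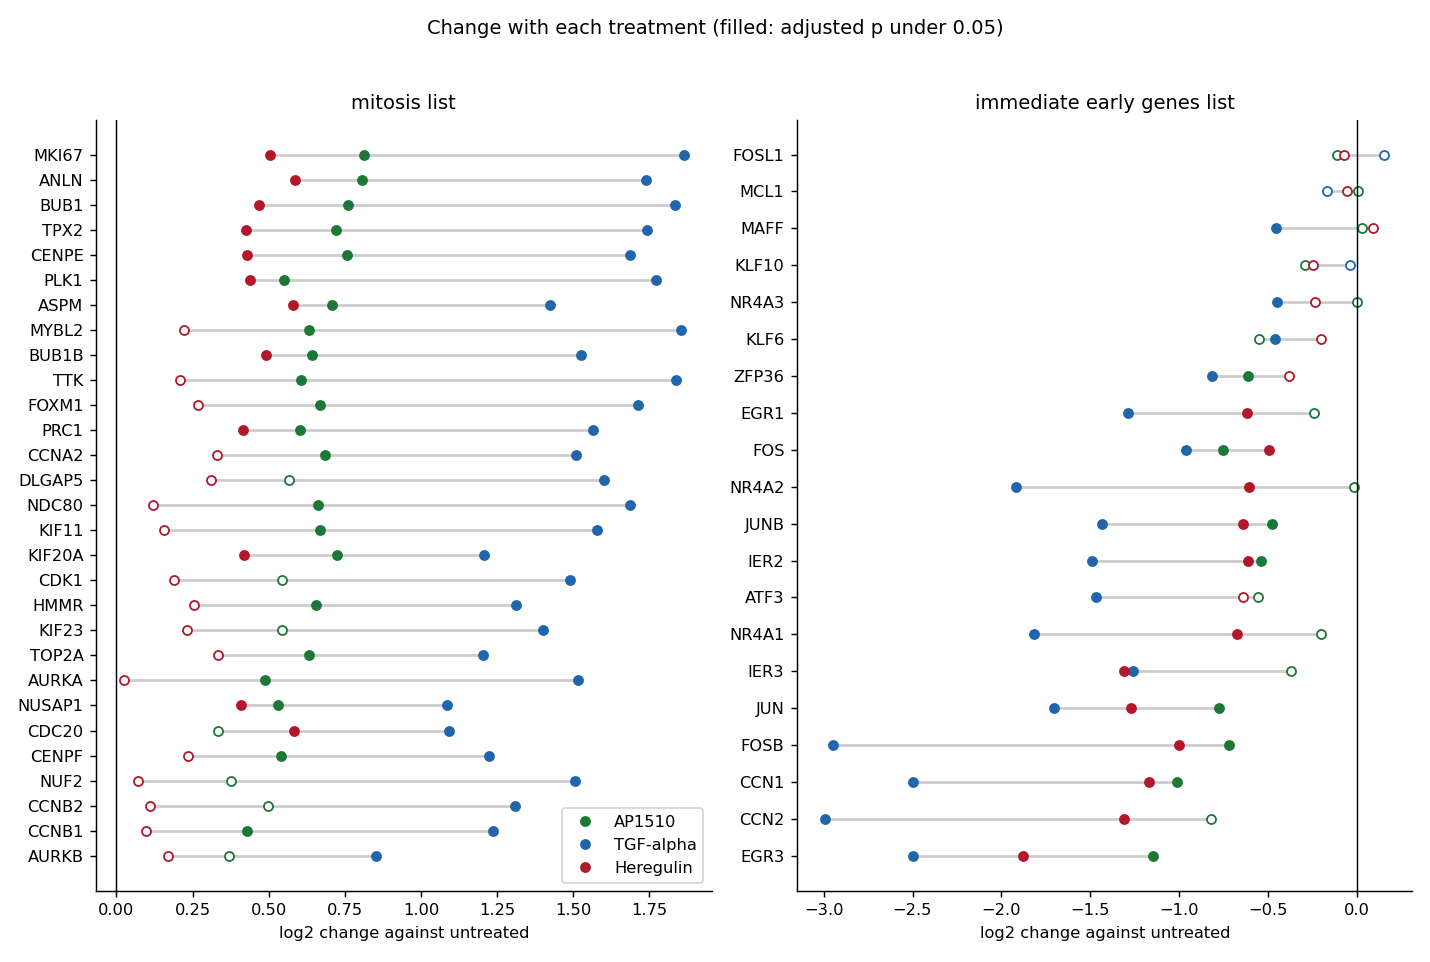
The horizontal axis is the log2 change against untreated of each measured gene of the mitosis list (left, 29 genes) and the immediate early list (right, 20 genes), with AP1510 in green, TGF-alpha in blue and Heregulin in red, filled where the adjusted p was under 0.05. Genes are ordered by the mean of the 3 changes, which is highest for MKI67 in the mitosis list and lowest for EGR3 among the early genes, and in the mitosis list TGF-alpha is farthest from 0 for every gene.

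Of 20 output and feedback genes of ERK signalling 5 rose and 6 fell in the mean. In all 3 treatments 2 fell, LIF and DUSP5, where 0.364% of all genes did, and the count was 1 in 8 of the 12 fits without 1 array. DUSP5 is a nuclear phosphatase that inactivates ERK, and changed by -0.75, -1.78 and -1.07. Its call ended without 9 of the 12 arrays, among them AP1510 replicate 1. DUSP4, a related phosphatase, had -0.48, -0.90 and -1.36, and PHLDA1 had -0.06, 0.69 and -1.65, so that the treatments pointed in different directions.

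Among genes that FOXO factors raise when PI3K signalling is low, 9 of 21 fell in the mean and 1 rose, with a median of -0.27. The list's median was -0.17 with AP1510, -0.35 with TGF-alpha and -0.08 with Heregulin. With TGF-alpha 1 rose and 11 fell, against 12.5% and 13.4% of all genes. With Heregulin 3 rose and 3 fell, against 3.45% and 5.06%. With AP1510 0 rose, also at an unadjusted p under 0.05, and 4 fell by limma, against 0.771% and 0.7%. TNFSF10 and PIK3IP1, an inhibitor of PI3K, fell in all 3. The call for PIK3IP1 ended in the fits that dropped replicate 1 or 2 of Untreated or of AP1510. FBXO32, a muscle atrophy ubiquitin ligase, had changes of -0.35, -2.37 and -0.05. PDK4, which slows pyruvate oxidation, had -0.84, -1.56 and -0.13, and BCL2L11, the BH3-only protein BIM, had -0.44, -1.56 and -0.30. For these 3 genes the Heregulin change did not pass. Of the death ligands and receptors, TNFSF10 was the only 1 of 11 to pass in all 3, and FAS, a death receptor, had 0.08, 0.80 and 0.26.

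In the list of arrest and quiescence genes 6 of 18 fell and 1 rose in the mean, and only TXNIP fell in all 3. TXNIP binds thioredoxin and restrains glucose uptake, and it read 11.85, 11.91 and 12.06 untreated, 11.09, 11.28 and 11.51 with AP1510, 10.79, 10.70 and 10.61 with TGF-alpha and 11.39, 11.36 and 11.55 with Heregulin. The treated arrays lay below all untreated ones. CDKN1A, the inhibitor p21, had changes of -0.22, -0.34 and -0.52, and CDKN1B, the inhibitor p27, had -0.09, -0.75 and -0.41, and neither passed with AP1510.

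With AP1510 0 of 27 NF-kB and inflammatory genes rose by limma and 6 fell, against 0.771% and 0.7% of all genes. At an unadjusted p under 0.05, 2 rose and 14 fell with AP1510. With TGF-alpha 1 rose and 15 fell by limma, against 12.5% and 13.4% of all genes. With Heregulin 12 rose and 3 fell, against 3.45% and 5.06%. In the mean 10 fell and 5 rose, against 7.52% and 6.21%. CD14, IL6 and TNFAIP2 fell in all 3. CD14, a co-receptor for bacterial lipopolysaccharide, read 9.79, 9.57 and 9.46 untreated, 8.07, 8.54 and 8.48 with AP1510, 7.41, 7.10 and 7.17 with TGF-alpha and 9.0, 8.96 and 8.80 with Heregulin, a mean fall of 2.70-fold. The TGF-alpha arrays were the lowest and no treated array reached the untreated ones. IL6 read 5.55, 5.84 and 5.33 untreated, 4.23, 4.67 and 4.74 with AP1510, 3.99, 4.05 and 3.97 with TGF-alpha and 4.90, 4.86 and 4.99 with Heregulin. All 12 IL6 values lay below 5.98, the median untreated level of all genes. Whether they are above background was not tested. SAA1, an acute phase protein, passed in the mean with 1.38, but its changes were 0.40, 0.25 and 3.48, and only that with Heregulin passed.

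Of 20 interferon response genes 10 fell in the mean and 0 rose, against 7.52% and 6.21% of all genes, with a median of -0.30. At an unadjusted p under 0.05 by limma also 0 rose in the mean. The list's median was -0.23 with AP1510, -0.54 with TGF-alpha and -0.0021 with Heregulin. With Heregulin 1 rose and 4 fell by limma, against 3.45% and 5.06% of all genes. At an unadjusted p under 0.05, 3 rose and 6 fell with Heregulin. GBP2, IRF1 and IFIT1 fell in all 3. IRF1, a transcription factor of the interferon response, changed by -0.83, -2.28 and -0.82. The count in all 3 was 0 without Untreated replicate 1 and 1 without Untreated replicate 2 or AP1510 replicate 2. IFITM1, a membrane protein that restricts viral entry, lay just outside with -1.09, -1.60 and -0.41, its Heregulin change having an adjusted p of 0.051.

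Sodium transport genes moved in both directions, with 6 of 16 higher and 5 lower in the mean, against 6.21% and 7.52% of all genes. Their median change was 0.04. SCNN1B and HSD11B2 rose in all 3 and in each fit without 1 array. SCNN1G, the gamma subunit of the channel, had the larger mean rise, 2.02 ± 0.18, but its changes were 0.55, 2.79 and 2.71, and that with AP1510 did not pass (adjusted p 0.31 by limma). TMPRSS4, a membrane serine protease, had -0.76, -1.63 and -1.31.

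Of 15 genes that glucocorticoid hormone induces, 1 rose and 2 fell with AP1510, where 0.771% and 0.7% of all genes did. With TGF-alpha 9 rose and 2 fell, against 12.5% and 13.4% of all genes, and with Heregulin 10 rose, against 3.45%, and 0 fell by limma, where 1 did at an unadjusted p under 0.05. Hydrocortisone was in the medium of all groups. In the mean 8 rose and 2 fell, and TFCP2L1 was the only one to rise in all 3, joined by 1 more gene when AP1510 replicate 3 was left out. ZBTB16, a zinc-finger repressor, had changes of 0.76, 1.72 and 2.64, MT2A, a metallothionein, 0.03, 2.24 and 1.86, and TSC22D3, the leucine zipper protein GILZ, 0.43, 1.59 and 1.39. None of these 3 passed with AP1510.

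The circadian clock list held shared changes in both directions. BMAL1, the core activator, read 6.11, 6.16 and 5.92 untreated, 6.96, 7.10 and 6.90 with AP1510, 7.04, 7.10 and 7.18 with TGF-alpha and 6.71, 6.58 and 6.54 with Heregulin, a mean rise of 1.79-fold with an adjusted p of 3.4e-06 by limma. Every treated array was above every untreated array. NR1D2, whose product represses BMAL1 transcription, read 8.60, 8.18 and 8.43 untreated, 7.24, 7.32 and 7.75 with AP1510, 7.17, 7.12 and 7.23 with TGF-alpha and 7.07, 6.78 and 6.82 with Heregulin, a mean fall of 2.35-fold. DBP, a clock output factor, changed by -0.44, -0.73 and -0.47, and its call ended without 10 of the 12 arrays. NR1D1, encoding REV-ERB alpha, had -0.79, -0.38 and -1.16, and its TGF-alpha change did not pass (adjusted p 0.093). In the mean 4 of 18 clock genes rose and 6 fell.

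Of 17 cholesterol synthesis genes 9 rose in the mean and 0 fell by limma, where 1 did at an unadjusted p under 0.05, and the median was 0.27. ACAT2 and HMGCS1, which act at the entry of the pathway, and SQLE, the squalene epoxidase, rose in all 3. Their changes with AP1510, TGF-alpha and Heregulin were 0.64, 1.75 and 0.43 for ACAT2, 0.46, 1.17 and 0.39 for HMGCS1 and 0.43, 1.24 and 0.77 for SQLE. No gene of the list passed in all 3 treatments without Untreated replicate 1 or 2 or AP1510 replicate 1, and only 1 did when replicate 3 of Untreated, of AP1510 or of Heregulin was dropped, or replicate 1 of Heregulin or of TGF-alpha. FDPS, which makes farnesyl diphosphate, had 0.36, 1.05 and 0.22 and missed with Heregulin.

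Of 8 measured genes of the basal list 4 rose and 0 fell in the mean by limma, where 2 fell at an unadjusted p under 0.05, and KRT14 and KRT5 rose in all 3. With TGF-alpha 5 of the 8 rose and 2 fell, against 12.5% and 13.4% of all genes. KRT14 read 7.42, 7.29 and 7.43 untreated, 7.91, 7.92 and 7.76 with AP1510, 7.97, 7.92 and 7.91 with TGF-alpha and 8.0, 8.01 and 8.02 with Heregulin, a mean rise of 1.47-fold with an adjusted p of 3e-05 by limma. KRT5, its partner, changed by 0.52, 1.09 and 0.82, and its call ended without Untreated replicate 1 or 3 or AP1510 replicate 1. KRT16, a keratin of wounded and proliferating epidermis, rose by 0.93, 0.60 and 1.18. In the squamous list 6 of 29 rose and 6 fell in the mean, and KRT16 and MUC21 rose and CLCA2 fell in all 3. IVL, the cornified envelope protein involucrin, had -0.42, -1.10 and -1.04.

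Of the contractile and matricellular targets of YAP and SRF, 6 of 19 fell and 1 rose in the mean, and CCN1 and MYLK fell in all 3, MYLK alone without Untreated replicate 2. Of the junction list 2 of 15 rose and 4 fell in the mean, and 0 passed in all 3 by limma, with 2 higher and 3 lower at an unadjusted p under 0.05 and 1 lower without Heregulin replicate 2 or 3. CLDN4 and CLDN1, claudins of tight junctions, had changes of -0.55, -1.22 and -1.23 and of -0.31, -1.94 and -0.30. PRLR, the prolactin receptor, was the 1 of 12 luminal genes to fall in all 3, by -0.44, -0.31 and -0.44 from a level of 4.37 to 4.45 untreated. Its call ended when Untreated replicate 2 or 3 was dropped, and also on dropping TGF-alpha replicate 2 or AP1510 replicate 1.

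**Figure D5:**
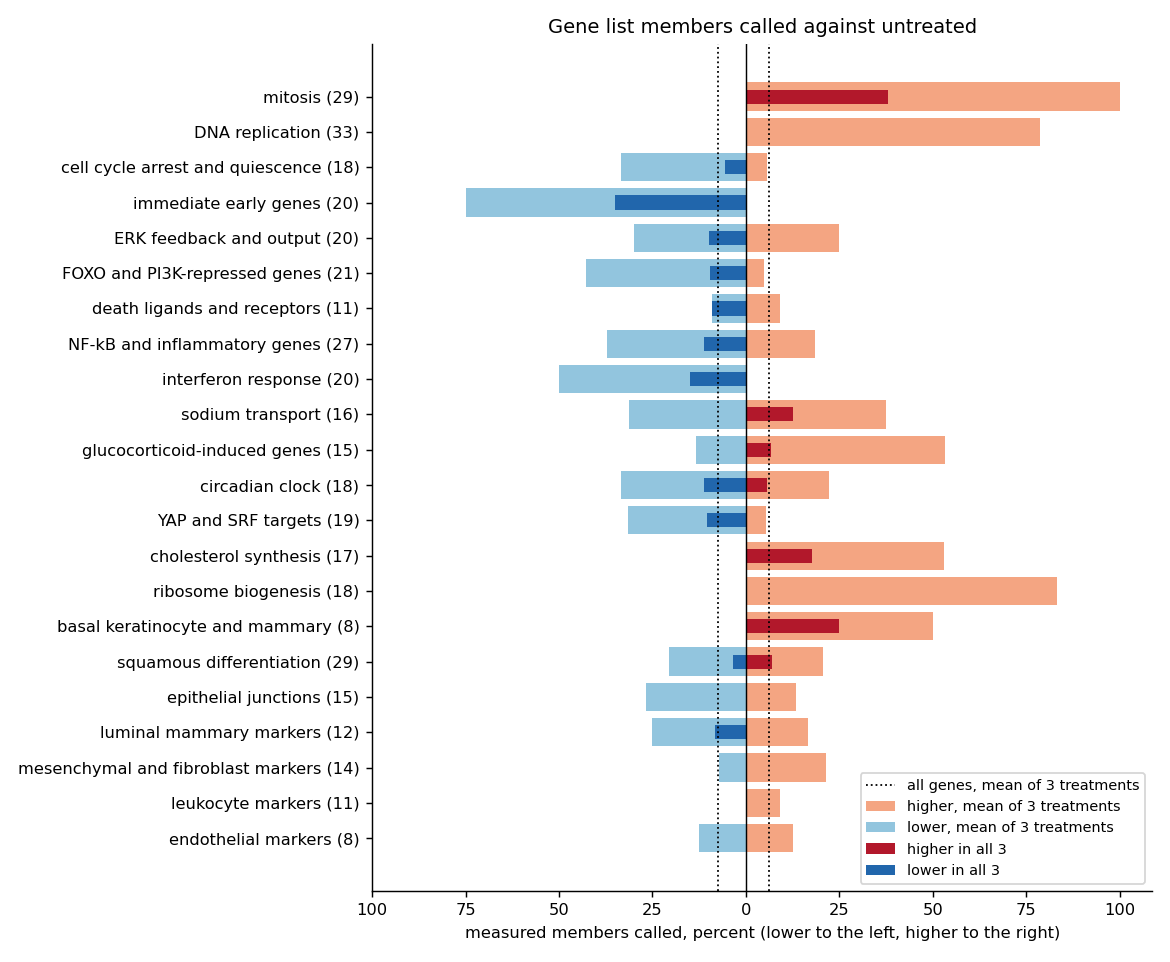
The horizontal axis is the percent of each list's measured genes, given in brackets, that passed against untreated, lower to the left and higher to the right, pale for the mean of the 3 treatments and dark for all 3, with dotted lines at the percent over all genes in the mean. Mitosis and immediate early genes have the longest dark bars, while DNA replication and ribosome biogenesis have long pale bars and no dark ones.

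The remaining shared genes extend these groups or belong to none of the lists. Altogether 45 of the 119 were in at least 1 list and 74 in none. Beyond the genes chosen by the naming rule there were 29 rising genes with a mean change of 1.45-fold to 2.28-fold and 43 falling genes with 1.39-fold to 2.58-fold. They are named here to account for every gene of the set, after their values were seen.

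Among these rising genes several have known roles in cell division: CDCA5 protects cohesion of sister chromatids, CEP55 acts in abscission, CIT in cytokinesis, UBE2C in cyclin destruction and PTTG1 is securin. MASTL sustains mitotic entry, ZWINT belongs to the kinetochore, TICRR helps replication origins fire and DIAPH3 nucleates actin. CDCA5 had changes of 0.58, 1.99 and 0.35 with AP1510, TGF-alpha and Heregulin, and CEP55 of 0.73, 1.80 and 0.49. DNER, a neuronal Notch-related protein, and PID1, an adaptor of insulin signalling, rose most with Heregulin, by 1.86 and 1.84, against 0.44 and 0.57 with AP1510. SYN3, a synapsin, had 0.35, 1.59 and 1.12. With 1 array left out, SYN3 kept its call in 2 of the 12 fits, DNER in 3 and PID1 in 8. FGFBP1 releases fibroblast growth factors from the matrix and rose by 0.56, 0.96 and 0.76, ABCA12, the lipid transporter of the skin barrier, by 0.43, 0.67 and 0.72, and ERG28, a scaffold of sterol synthesis enzymes, by 0.54, 0.75 and 0.50. TIAM1, which activates the small GTPase RAC, PRR11, POGLUT2, CCDC85C, SH3D21, SHISA9 and TP53I3 also rose.

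Among these falling genes CEACAM1, an adhesion molecule, changed by -0.74, -1.67 and -1.69, and MGP, an inhibitor of calcification, by -0.81, -0.95 and -1.92. LRIG1 is a membrane protein that limits ErbB receptor levels. It read 7.64, 7.57 and 7.56 untreated, 6.49, 6.91 and 7.10 with AP1510, 6.03, 6.11 and 6.33 with TGF-alpha and 6.48, 6.29 and 6.62 with Heregulin, a mean fall of 2.15-fold, and all treated arrays were below the untreated ones. PPARGC1A, a coactivator of mitochondrial genes, changed by -0.74, -1.75 and -0.59, PC, pyruvate carboxylase, by -0.56, -1.50 and -0.39, PDP1, the pyruvate dehydrogenase phosphatase, by -0.65, -1.08 and -0.85, and CES2, a carboxylesterase, by -0.57, -1.32 and -0.49. Without 1 array, PDP1 kept its call in 2 of the 12 fits, CEACAM1 in 5, MGP in 9 and LRIG1 in 11. Signalling genes were the kinases RIPK4 and MAP3K14, TRIB1, the corepressor TGIF1, the cytokine CSF1 and the receptors IL4R, BDKRB1, THRB and CD36. Matrix and Wnt genes were LAMA4, FBN1, SMOC1, EXT1, PRSS23, WLS and PRICKLE1. The others were TBL1X, LEMD1, DDIT4L, PTGS1, MGAT4A, TMC5, FAM107B, RIN2, PPT1, ACOT2, COG7 and the variant U1 small nuclear RNA RNVU1-15, whose near-identical copies may share probes.

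The edge of the set lay close to values on either side of the threshold. Just inside, PTTG1 changed by 0.51, 1.32 and 0.30 with a largest adjusted p of 0.048 with Heregulin, and BDKRB1 had the same largest p with Heregulin and TNFAIP2 with AP1510. Just outside, GBA2 had changes of -0.36, -0.37 and -0.32 with 0.051 for AP1510, and CDCA8, a subunit of the chromosomal passenger complex, had 0.65, 1.52 and 0.37 with 0.052 for Heregulin. At least a 2-fold change in each of the 3 treatments was reached by 4 rising genes, TFCP2L1, LOX, SCNN1B and MUC21, and 6 falling ones, TNFSF10, CLCA2, EGR3, MYLK, LIF and CCN1.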

How the data were processed

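The deposited values are log2 intensities of Affymetrix probe sets that the authors made with RMA, per the submitters' processing notes, which give no version; no genome build was needed. RNA was labelled with biotin, per the labels' protocols. The table holds 33297 probe sets on 12 arrays, with values of 1.75 to 14.2 and array medians of 5.33 to 5.44; arrays correlated at 0.988 to 0.994 within groups and 0.978 to 0.993 between groups. Probe sets with 1 gene (19460) were named through the platform annotation, 19429 of them updated by Entrez ID to RefSeq, GRCh38.p14; the probe set with the highest mean stood for a gene, which mattered for 769 genes. Those with several genes (1754) or no listed gene (12083) were left out.

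A single limma 3.58.1 model in R 4.3.3 held the 4 group means of all 12 arrays (8 residual and 7.55 prior degrees of freedom, median moderated SD 0.128). Contrasts were two-sided, with Benjamini-Hochberg adjustment over 18417 genes and a threshold of 0.05. A gene counts as shared when AP1510, TGF-alpha and Heregulin each pass against untreated with 1 sign. The procedure was tested on simulated data. Promoter matches were counted in RefSeq stretches of 300 bases, held for 89 of the 119 shared genes. Genes were named by rule: the 12 highest and 12 lowest shared genes by their smallest change, TNFSF10, SCNN1B, EGR3 and MKI67, up to 4 passing and 2 not passing genes of each list, 4 genes passing with the opposite sign in AP1510, and the 4 shared genes with the smallest and the 4 with the largest gap between treatments. The gene set, the lists and the rule were chosen with earlier results of these data known. The alternatives were leaving out each array or treatment, scaling, dim genes, probe set averages, variance settings, array weights and stricter rules. List counts and calls of single shared genes with each array left out, and AP1510 changes without replicate 1, were added after seeing the data. The number of arrays limits the precision.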

Additional observations from a re-analysis of the deposited data

How the results depend on the processing

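The shared set depended on AP1510, on single arrays and on which probe sets were fitted. The mean of the 3 treatments was more stable to leaving out arrays. Leaving out 1 array gave 48 to 149 shared genes and 1707 to 2833 genes in the mean. The shared count was 997 with AP1510 left out, 230 with Heregulin left out, 132 with TGF-alpha left out, 180 with dim genes left out and 216 with array weights. It was 19 (8 higher, 11 lower) when the largest of the 3 p-values was adjusted, 44 when each change also had to reach 1.5-fold, and 889 for genes whose 9 treated arrays did not overlap the 3 untreated arrays. The mean called 867 genes with TGF-alpha left out, 1528 at an adjusted p of 0.01 and 542 against a 1.2-fold limit. It called 54 (19 higher, 35 lower) when the 9 treated arrays formed 1 group, a fit whose spread includes the differences among treatments. Renewed quantile normalization gave 118 shared genes, 63 higher and 55 lower, of which 101 were in the set of 119. Counts of 1 or 2 genes of a list in the mean moved by 1 gene in some fits without an array. Genes called in the mean changed sign with TGF-alpha left out for MMP7 (0.44) and NT5E (-0.96), and with Heregulin left out for CFB (-1.17). NFKB2 and DCN, which did not pass in the mean, turned to 0.32 and -0.38 in the same fits. Of the 47 named shared genes, 24 no longer passed in the mean when the 9 treated arrays formed 1 group. The mean change of all 47 kept its direction in every alternative that tested it. Where the array values were unchanged this was fixed in advance, since each gene's 9 treated arrays lay on one side of its 3 untreated arrays.

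No paired analysis was possible because the labels give no replicate numbers that groups share.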

Other observations

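Passing in the mean did not always mean a shared direction. MT1X, CFB, MMP7 and NT5E passed in the mean and passed with the opposite sign in AP1510. MT1X, a metallothionein, had changes of -0.57 with AP1510, 0.62 with TGF-alpha and 1.81 with Heregulin. CFB, complement factor B, had -0.66, -1.67 and 3.94, so that its mean of 0.53 came from Heregulin. MMP7, the protease matrilysin, had 0.65, -2.06 and 0.23, and NT5E, the enzyme that makes adenosine from AMP, had -0.61, 3.02 and -1.32.

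The probe sets left out of the gene test were fitted together with all 33297. Of those with no listed gene 297 passed in the mean, 2.46%, and of those with several genes 136, 7.75%, against 10.4% of those with 1 gene. In this fit the adjustment ran over all probe sets. In all 3 treatments 17 probe sets with 1 gene rose and 17 fell (0.175%), where 52 and 67 genes did in the gene test (0.646%). Of those with several genes 1 rose and 1 fell, and of those with no listed gene 0 rose and 1 fell.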
